A study of Mus musculus with 12 samples.

Results

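RNA bisulfite sequencing (RNA BS-seq) of mouse neural stem cells listed 6384216 cytosines that kept at least 1 unconverted read in some library, and 6210873 of them lay in annotated nuclear genes. Here, the 691 cytosines described stood close together: each was called in both replicates of at least 1 of 5 conditions and had another called cytosine on the same strand within 25 bases in both of those replicates. Calling required a coverage of at least 20 reads, at least 6 unconverted reads and a level of at least 10%, the level being unconverted reads as a share of unconverted and converted reads. In all, 953 nuclear gene cytosines were called in both replicates of a condition with no regard to neighbours, and 258 of them were isolated, with no called neighbour within 25 bases in either replicate of that condition and no place in a cluster. The clustered cytosines were selected on their measured levels, so the levels in the conditions that selected them are a description, with no test.

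The cells were neural stem cells from the subventricular zone of adult wild-type male C57BL/6 mice aged 6 to 8 weeks, grown as monolayers with EGF and bFGF. All cultures shared this genotype and medium, and differed in folic acid, with LF standing for 1.5 μM, MF for 10 μM and HF for 80 μM over 4 days. Poly(A) RNA was taken from total RNA or from pooled polysome fractions of a sucrose gradient (pLF, pMF and pHF), with 2 replicates of each of the 6 groups and 12 libraries. The replicates are described as biological, without a word on whether they were separate isolations of cells, so tests between libraries measure only the spread between these samples.

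Bisulfite deaminates unpaired cytosine to uracil, which is read as T, while 5-methylcytosine (m5C) stays C. An unmethylated cytosine that the reagent did not reach, because it was base paired or lay in a structure, is also read as C, so an unconverted base does not by itself tell methylation from incomplete conversion. In mammalian mRNA, the methyltransferase NSUN2 is known to act on single cytosines followed by a G-rich stretch, whereas runs of neighbouring unconverted cytosines are commonly screened out for the reason above. The deposited lists still hold such runs, and they are described here as measured.

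The sequences in which the clusters lay are shown first, because their composition separates the kinds of clusters described later. Each is a 30-base window of GRCm38 (mm10), read 5′ to 3′ on the strand of the gene, with clustered unconverted cytosines in capitals and all other bases in lower case. Windows from genes with many such cytosines, one to a gene, were
S100a13, intron, chr3:90519574-90519603, plus strand: CCCtCCCtcCCtCcCtcCCtCcCtCCCtCC
Arhgap42, intron, chr9:9152197-9152226, minus strand: CtCCtCctcCtCCtcCtCctcCtCcttCtC
Gm26735, noncoding exon, chr13:28951521-28951550, plus strand: CCCCtttCtCCttCtaCtCtCCatCtattC
Gm10800, CDS, chr2:98667123-98667152, minus strand: CtCgCCatattCCaggtCCttCagtgtgCa
Bicral, intron, chr17:46857219-46857248, minus strand: cctcatcCCCggCCtgggCCgCggagcagg
The S100a13, Arhgap42 and Gm26735 windows held no G at all, and the introns among them were pyrimidine repeats.

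The second set shows mRNA exons and was chosen after the values had been seen, for the 3 patterns that recurred: an unbroken run of C, a GGGCCC palindrome, and a CCG or CGG repeat. The Zc3h4 window does not hold GGGCCC in full, though the motif lies in or beside its cluster.
Cavin1, 3′UTR, chr11:100958429-100958458, minus strand: gggaatacacCCCCCCCCCCgaagagcagc
Cdc42ep1, 3′UTR, chr15:78850784-78850813, plus strand: gtttcctgcccCCCCCCCCggtaccaaagc
Ube2r2, 5′UTR, chr4:41135750-41135779, plus strand: cacctccactcCCCCCCCCataagtagagg
Myo9b, CDS, chr8:71359548-71359577, plus strand: tctctccaagggCCCCCCgcacctgctctc
Mad2l2, 3′UTR, chr4:148145449-148145478, plus strand: tacggggCCCCagcccggggCCCCagactc
Usp19, CDS, chr9:108501268-108501297, plus strand: ggggCCCCaagactgggtggggCCCCCgcc
Eif4ebp2, 5′UTR, chr10:61452581-61452610, minus strand: ccgccgCCgCCgCCgCCgCCgCCgccgccg
Samd1, CDS, chr8:83997708-83997737, plus strand: gcggCggCCgCCaccacggCggCCgCCgcc
Zc3h4, 3′UTR, chr7:16437070-16437099, plus strand: cCCCagCCttggCCacgaggccctgaggCC
In the Cavin1, Ube2r2 and Myo9b windows at most 1 C, at the 5′ edge of the run, was left out of the cluster, and in Eif4ebp2 the outer CCG units were left out.

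Before the results, 3 libraries need a remark. At the positions that the study lists for each condition, read counts were the same at most sites in every other group, but at few or none in both libraries labelled HF, which are therefore named as labelled and did not enter the selection. pHF replicate 2 listed 9777 nuclear gene cytosines with a level above 90%, against 66 to 765 in each other library, and the counts and cluster differences of pHF against pMF are also given without it. With pHF left out of the selection, 665 of the 691 cytosines were selected. Summed coverage was between 1186213013 and 2857966129 per library, and unconverted reads made up 0.128% to 0.192% of reads at cytosines with a level under 5%. Of the neural stem cell markers, Nes, Vim, Fabp7, Slc1a3 and Msi1 were covered in 12 libraries, and no listed cytosine carried the Sox2 annotation. The neuronal, oligodendrocyte, microglial and endothelial markers Rbfox3, Syt1, Mog, Aif1, Csf1r and Cldn5 had no listed cytosine with a coverage of at least 20, and Snap25, Dcx, Mbp and Pecam1 had between 0 and 12, but Cx3cr1, a microglial receptor, had 45 to 224. The libraries were amplified by PCR and carry no molecular identifiers, so reads are not independent molecules and tests on them cover counting error only.

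The 691 cytosines formed 77 clusters in 65 gene annotations on 20 chromosomes, when neighbours within 25 bases were joined. A cluster held a median of 7 such cytosines (range 2 to 56) over a median span of 15 bases (2 to 137). Introns held 292 of them, CDS 165, 3′UTRs 124, 5′UTRs 85 and noncoding exons 25, and all 691 lay on the strand of their gene. The 20 genes with the most held 382, which is 55.3%. pLF selected 464, MF 322, pMF 305, LF 284 and pHF 282. Of the 691, 344 were selected in polysome mRNA only, 165 in total mRNA only and 182 in both. Only 107 were selected in all 5 conditions, whereas 237 were selected in 1, of which pLF alone gave 124. A cytosine could still be called in a library of a condition that did not select it. At the edge of the selection, a cytosine of Ankrd13c entered with 10.0% and 13.7% in pHF (coverage 260 and 197), and a cytosine of Usp7 missed it in MF with 9.97% and 12.8% (coverage 351 and 524).

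The clusters fell into 2 kinds by their mean level over the libraries of the 5 conditions. In 16 clusters, with 269 cytosines, the mean was 93.8% to 100% (median 99.7%), and these are called near-complete. In the other 61, with 422 cytosines, it was 4.25% to 69.2% (median 22.0%), and these are called partial. The line between them was drawn at 90% after the values had been seen, and no cluster mean lay between 69.2% and 93.8%.

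**Figure D1:**
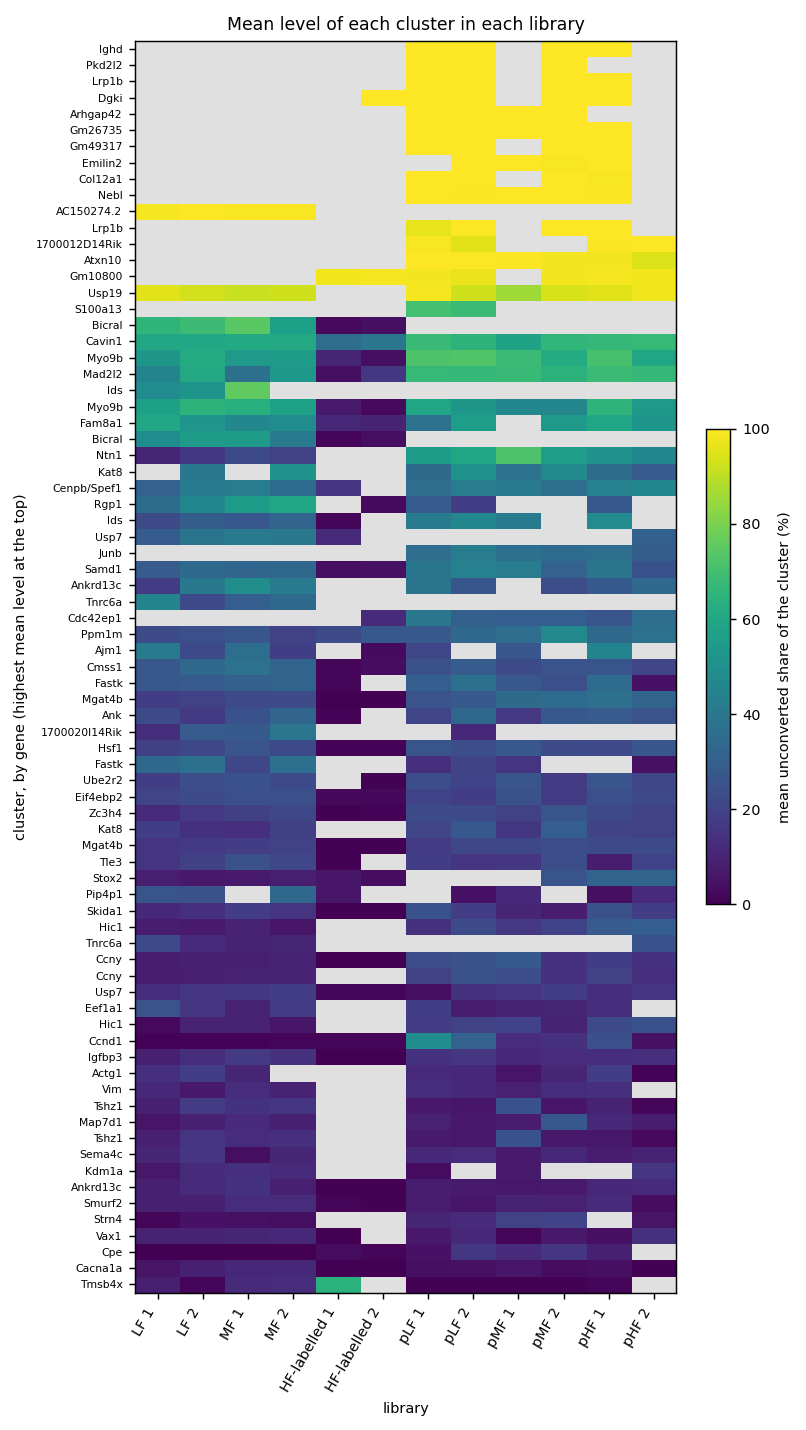
Mean unconverted share (%) of the covered cytosines of each of the 77 clusters (rows, highest mean at the top) in each of the 12 libraries (columns). Grey marks a cluster in which most cytosines were not listed at a coverage of at least 20. The 16 near-complete clusters at the top were grey in the LF and MF libraries except AC150274.2 and Usp19. Of the 25 clusters covered in all 6 total mRNA libraries, 22 were lower in both libraries labelled HF than in every LF and MF library. LF and MF took part in the selection, and the libraries labelled HF did not.

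The near-complete clusters were mostly pyrimidine repeats in introns that were seen in polysome libraries. Of the 16, 13 lay in introns, 14 had no G in their span, and 15 lay in sequence that the genome marks as repeats. In 14 of them no cytosine had a coverage of at least 20 in the lists of the 4 LF and MF libraries, and in 1, AC150274.2, none had it in polysome libraries. A position is absent from a list when its coverage was low or when it had no unconverted read, and in these bulk libraries fewer cells with a transcript cannot be told apart from less of it per cell. Only Usp19 was covered in all 10 libraries. Whether reads of other copies of a repeat were placed in these spans was not tested.

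In Arhgap42, which encodes a GTPase-activating protein, the mean of the cluster was 100% in both replicates of pLF and of pMF. In Atxn10, the gene of ataxin 10, pLF gave 100% and 99.8%, pMF 99.3% and 98.4%, and pHF 98.3% and 94.6%. In Gm26735, a noncoding transcript, it lay between 99.9% and 100% in the 5 libraries that covered it. Every library that covered these clusters read them as nearly unconverted, and the replicates differed by less than 4 percentage points.

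The unconverted cytosines of such a repeat did not include all of its cytosines. In Atxn10, 20 of 73 cytosines in the span were selected, and the 52 others that were listed had levels from 0.455% to 8.47% (median 1.32%). In Arhgap42, 37 of 62 were selected, and the 3 others listed with enough coverage had levels of 3.70% to 4.35%. Nebl, the gene of nebulette, had 12 of 28, and the 4 others that were listed had 3.12% to 4.17%. Col12a1, the only collagen gene with such a cluster, had 12 of 20, and the 5 others listed had 1.63% to 3.85%. A cytosine was listed only with at least 1 unconverted read, so coverage sets a floor to such levels. Cytosines read as nearly 100% and as nearly 0 thus lay within the same stretch. Over the 16 near-complete clusters, 60.2% of 447 cytosines were selected. Of the remaining 178, 77 were on no list, and of the 99 listed with a coverage of at least 20, 10 reached 10% in some library.

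Lrp1b, the gene of a receptor of the LDL receptor family, held 11 selected cytosines in a pair of such intronic clusters. One had 96.4% and 100% in pLF, and the other had 100% in both replicates.

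Some repeats were not of this mixed kind. All 16 cytosines in the span of Gm26735, all 32 of Gm10800 and all 56 of AC150274.2 were selected. Gm10800 was covered in both libraries labelled HF (97.7% and 98.6%), in pLF (98.4% and 97.2%), in pMF replicate 2 (98.3%) and in pHF (98.5% and 98.0%). In pMF replicate 1 only 13 of its cytosines had a coverage of at least 20, with a mean of 96.9%. Gm10800 was the only cluster with called cytosines on the opposite strand, 19 in its span. AC150274.2, an uncharacterised gene annotation, had 98.7% and 100% in LF and 99.1% and 98.9% in MF. The 1700012D14Rik intron had 99.0% and 95.6% in pLF and 99.2% and 100% in pHF, with 22 of 39 cytosines selected. The others of that span ranged from 0.543% to 20.0%.

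S100a13, a gene of a calcium-binding protein of the S100 family, held the second-largest cluster, with 45 of 61 cytosines. Its mean was 70% and 68.3% in the replicates of pLF, where single cytosines ranged from 35.0% to 100%, and the other listed cytosines in its span had 3.57% to 77.3%. It was a pyrimidine repeat like the near-complete clusters but had a level below them.

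Usp19, which encodes a deubiquitinase, was the exception among the near-complete clusters: it lay in coding sequence, outside repeats, with a C-rich block on each side of a G-rich stretch. Its mean was 95.6% and 93.2% for LF, 91.6% and 92.7% for MF, 98.6% and 93.0% for pLF, 85.9% and 93.8% for pMF, and 95.5% and 97.9% for pHF. The 10 libraries thus lay between 85.9% and 98.6%, and the last cytosine of the cluster was the lowest, at 78.4% ± 9.70 (SD, n = 10 libraries) against 90.2% or more at the others. No cytosine of it reached a coverage of 20 in the libraries labelled HF.

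**Figure D2:**
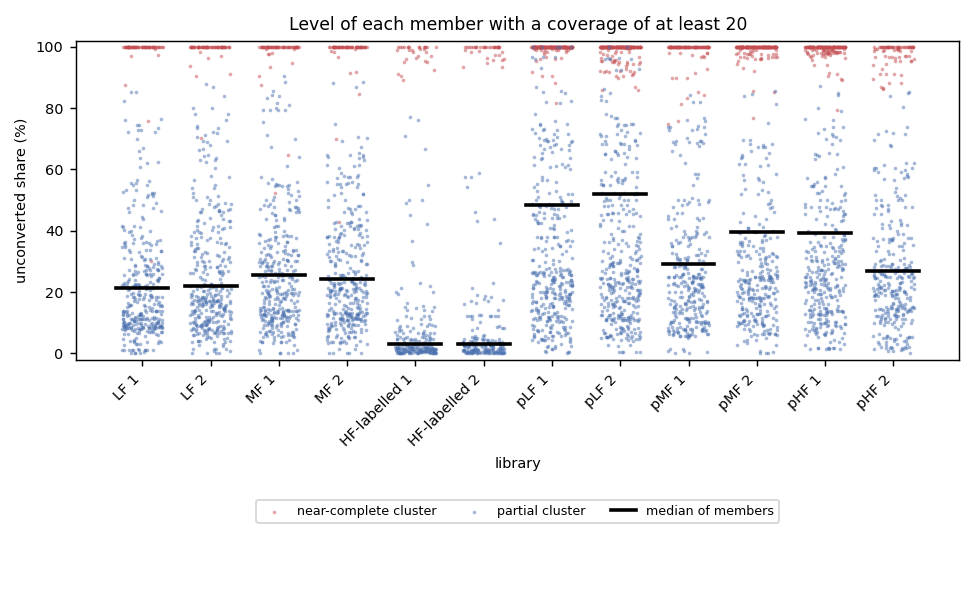
Unconverted share (%) of each clustered cytosine with a coverage of at least 20 in each of the 12 libraries. Red points belong to near-complete clusters, blue points to partial ones, and black bars mark the median of all points, which lay between 21.3% and 25.4% in LF and MF, at 48.4% and 52.1% in pLF, and near 3% (2.92% and 2.99%) where the label is HF.

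The partial clusters lay mostly in mRNA exons, and their GC content varied. Of their 422 cytosines, 29.4% were in CDS, 29.4% in 3′UTRs, 20.1% in 5′UTRs and 19.0% in introns, and 35 of the 61 clusters were covered in all 10 libraries. The median GC content of the 101 bases around them was 71.3%, against 47.5% around cytosines of near-complete clusters, 57.4% around the 258 isolated cytosines and 55.4% around 39129 low-level cytosines of the same genes. Some partial clusters lay in AT-rich sequence, with 29.7% GC around those of Tmsb4x and Eef1a1 and 36.6% around those of Vim and Cpe. Within their spans 84.7% of 498 cytosines were selected. In the flanks, 26 to 75 bases outside a span, the median level of listed cytosines was 0.676% as a median over the 61 clusters. Over the 4 near-complete clusters with listed flanks that median was 97.6%. It was 100% in Gm26735 and Gm10800 and 95.2% in 1700012D14Rik, but 2.74% in Usp19.

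Bicral, which encodes a subunit of a SWI/SNF chromatin remodelling complex, had a pair of intronic clusters covered in total mRNA only, one of which had the highest mean among partial clusters after S100a13. For the first, LF gave 65.6% and 68.4%, MF 74.5% and 56.3%, and the libraries labelled HF 2.61% and 4.16%. For the second, LF gave 48.7% and 54.9%, MF 55.3% and 41.7%, and the libraries labelled HF 1.69% and 3.63%. In both, the 4 LF and MF libraries were far above the libraries labelled HF. Both clusters were selected in LF and MF alone, so this difference is in part set by the selection.

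Cavin1, a coat protein of caveolae, carried its cluster in a run of C in the 3′UTR. Its mean was 60.1% and 59.5% for LF, 61.1% and 60.2% for MF, 67.6% and 64.7% for pLF, 57.8% and 66% for pMF, and 66.6% and 67.1% for pHF. The libraries labelled HF gave 35.8% and 39.4%. Along the selected part of the run, which leaves out its first C, the 10 libraries of the selection gave means of 14.7%, 36.5%, 59.4%, 75.8% and 84.6% from the first to the fifth selected cytosine, then 85.5%, 82.2%, 74.8%, 65.2% and 52.0% to the tenth. SDs were 3.04 to 11.5 percentage points, so the rise over the first 5 positions was larger than the spread between libraries, and the level was highest in the middle of the cluster.

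Other clusters had this shape in part. In Ube2r2, the gene of a ubiquitin-conjugating enzyme, the first selected cytosine, which is the second C of the run, had 12.6% ± 2.86 (SD, n = 10 libraries), the sixth selected one 26% ± 4.36 and the eighth 22.6% ± 3.41. In Cdc42ep1, whose product binds the GTPase Cdc42, the first selected cytosine, the fourth C of the run, had 9.24% ± 3.70 (SD, n = 6 libraries) and the sixth selected one 39.9% ± 4.90. In Eif4ebp2, a repressor of translation that binds eIF4E, the CCG repeat rose from 11.7% ± 1.14 at the first selected cytosine to 29.6% ± 3.87 at the seventh and came back to 16.2% ± 3.23 at the twelfth (SD, n = 10 libraries). In Myo9b, an unconventional myosin, the run stayed between 65.1% and 57.2% from first to last, with SDs of 7.20 to 8.89 percentage points. The first selected cytosine was thus low in 4 of the 6 clusters plotted by position and not in Myo9b or Usp19. Where a cluster starts was itself set by the minimum level of the selection.

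**Figure D3:**
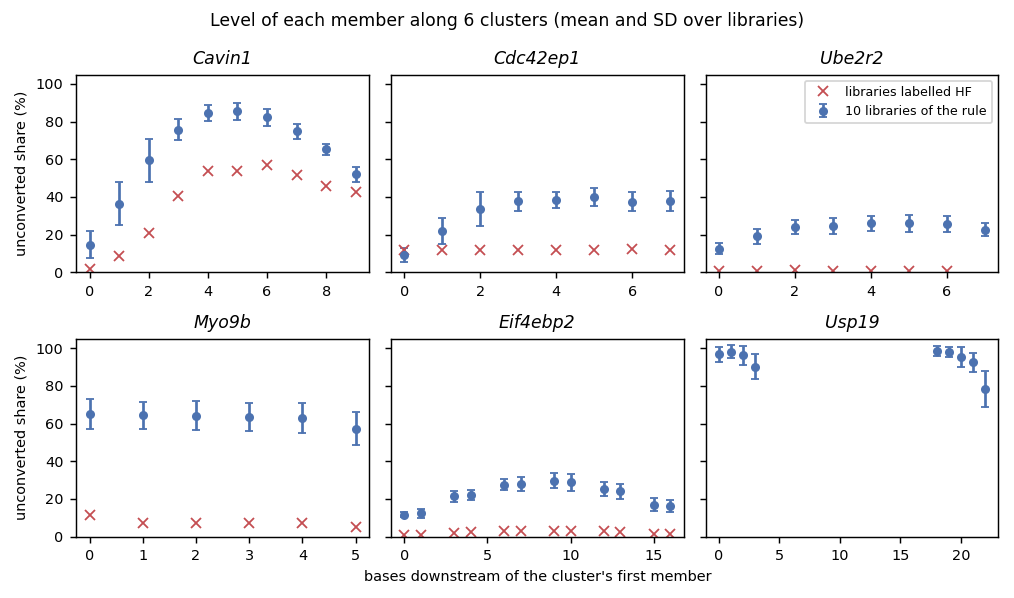
Unconverted share (%) against the distance in bases from the first selected cytosine for the 6 clusters Cavin1, Cdc42ep1, Ube2r2, Myo9b, Eif4ebp2 and Usp19, as mean (points) and SD (bars) over the covered libraries of LF, MF, pLF, pMF and pHF, with the mean of the libraries labelled HF as crosses. Cavin1 rises from 14.7% to 85.5% and falls to 52.0%, while Myo9b stays between 65.1% and 57.2%.

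Sequence features were not named in the rule, and they differed between the kinds of clusters. The rule did require another called cytosine within 25 bases, and an isolated cytosine had none. Shares in runs of C are therefore in part set by the selection. The shares below come from cytosines that lie side by side and share their sequence, so they are given as a description. A run of at least 4 C held 35.3% of the cytosines of partial clusters and 11.9% of those of near-complete clusters, against 4.26% of isolated and 8.32% of low-level cytosines. The complete triplet GGG at positions 2 to 4 downstream, the known context of NSUN2, followed 22.1% of the isolated cytosines, 8.77% of those in partial clusters, 0% of those in near-complete clusters and 2.16% of low-level cytosines. Cytosines of a CpG made up 26.5% in partial and 2.60% in near-complete clusters, 24.4% among isolated and 12.8% among low-level cytosines. Marked repeats held 94.8%, 37.7%, 6.98% and 5.17% of the near-complete, partial, isolated and low-level cytosines.

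Short motifs were then counted in the 21 bases centred on each cytosine, on both strands. GGGCCC, which is its own reverse complement, was found around 23.2% of the cytosines of partial clusters, 1.16% of isolated and 1.26% of low-level cytosines. CCGCCG, or CGGCGG on the other strand, was found around 19.4%, 1.16% and 2.29%. CCCCC, or GGGGG, was found around 25.6%, 3.49% and 5.55%, and it can overlap with the other motifs. Each motif holds several C, so the need for a called neighbour within 25 bases in part sets these shares. GGGCCC touched 18 of the 61 partial clusters, Mad2l2 and Ntn1 among them, CCGCCG touched 13 and CCCCC 20. Near-complete clusters had GGGCCC in 1 cluster, Usp19, CCGCCG in none and CCCCC in 4, and 79.6% of their cytosines had no G within the 21 bases, against 0.956% of low-level cytosines.

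Predicted base pairing separated the kinds further. Each cytosine was folded with 75 bases of genomic sequence on each side at 70 °C, a temperature of the conversion. Near exon ends such a window can hold intron sequence that spliced mRNA lacks, and the sets differ in their share of exons. The median probability of being paired was 97.6% in partial clusters, 2.12% in near-complete clusters, 44.5% at isolated and 46.7% at 2000 low-level cytosines. A probability above 90% was reached by 58.5% of the cytosines of partial clusters and 3.35% of those of near-complete clusters, against 14.0% of both isolated and low-level cytosines. At 37 °C the medians were 99.4%, 0.999%, 61.4% and 71.4%. By cluster, 37 of 61 partial and 1 of 16 near-complete clusters, again Usp19, averaged above 90% at 70 °C, and 4 partial and 15 near-complete clusters were below 30%. The 4 weakly paired partial clusters were S100a13, Myo9b, Stox2 and Vim. High levels were therefore found both where pairing was predicted and where it was not.

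**Figure D4:**
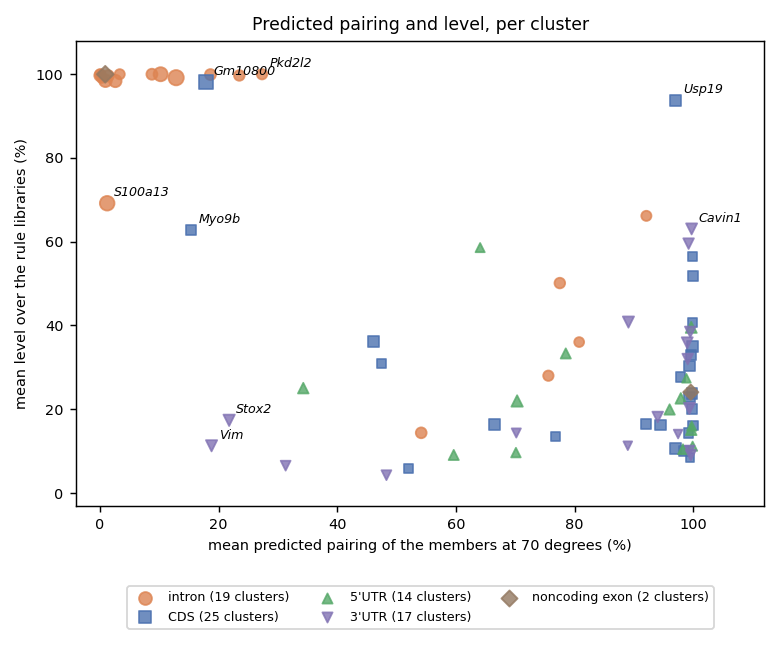
Mean level (%) of each of the 77 clusters over the libraries of the selection against the mean predicted pairing (%) of its cytosines at 70 °C, by place in the gene and with point size growing with the number of cytosines. Near-complete intron clusters sit at the upper left, Usp19 at the upper right, and most exon clusters at the right edge, Cavin1 at 63.1% among them.

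The replicates of a condition differed little next to the spread between clusters. The median difference between replicates at a cytosine was 3.61 percentage points in LF, 2.34 in MF, 2.31 in pLF, 3.36 in pMF and 4.63 in pHF, with single differences of up to 35.4. Cytosines of one cluster had a median SD of 2.55 to 3.37 percentage points in those 5 conditions, and cluster means had an SD of 21.6 to 35.5. In pHF the cluster with the largest replicate difference, 30.0 percentage points, was the downstream cluster of Fastk, with 34.9% in replicate 1 and 4.89% in replicate 2. A mismatching base was listed at 113 of the 691 cytosines in some library.

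The libraries labelled HF took no part in the selection and had lower levels. LF and MF did take part, so where they admitted a cytosine, a lower level under the HF label is in part set by the selection. A share over all cytosines was computed only for those called in polysome libraries. Of 147 clustered cytosines covered by at least 20 reads in all 6 total mRNA libraries, 131 were lower in both libraries labelled HF than in each LF and MF library, and 5 were higher, with medians of 2.64% and 21.9%. Among the 124 of them selected in polysome libraries, 110 (88.7%) were lower in both and 5 higher, with medians of 2.47% and 21.3%. Of 423 cytosines of any kind called in polysome libraries and covered in the 6 total mRNA libraries, 123 (29.1%) were lower in both. These 423 hold the clustered cytosines too, so 29.1% is not the share among other cytosines. By cluster, 22 of 25 were lower in both libraries labelled HF, with medians of 2.21% and 20.5%, and Ccnd1, Cpe and Ppm1m were not. Folic acid and whatever else set the libraries labelled HF apart cannot be told apart, so this is no comparison of doses.

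Eif4ebp2 showed the difference at high coverage. LF gave 21% and 23.4%, MF 24.6% and 24.3%, and the libraries labelled HF 2.29% and 2.12%, there with a median coverage of 4647 and 3358 reads. Among polysome libraries, pLF gave 20.0% and 18.1%, pMF 24.8% and 17.3%, and pHF 24.3% and 22.1%. Only the libraries labelled HF fell outside a range of 17.3% to 24.8%. Ppm1m, a protein phosphatase gene, did not follow: LF gave 23.0% and 24.4%, MF 26.9% and 19.4%, and the libraries labelled HF 23.1% and 27.4%, which overlapped.

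Of the comparisons between folate concentrations, LF against MF came first. Each comparison tested every cytosine of the lists with a coverage of at least 20 in the 4 libraries that was called in both replicates of at least 1 of the groups, with Fisher's exact test, two-sided, on pooled reads with Benjamini-Hochberg adjustment. Since such a cytosine had to be high in 1 of the groups compared, counts were restricted to clustered cytosines that a condition outside the comparison had also selected. They are given beside the share called among all cytosines tested. That background is not restricted in this way. It also holds cytosines called only in the groups compared, cytosines outside annotated genes and those of chromosome MT, so the shares are not fully alike. In LF against MF this left 181 of 332 clustered cytosines. Of these, 0 were higher in LF (background 0.163% of 1842) and 7 (3.87%) were lower (background 0.597%). Leaving out LF replicate 1 left 0, leaving out MF replicate 1 left 4, leaving out LF replicate 2 gave 14 lower, and leaving out MF replicate 2 gave 3 higher and 11 lower. In this and the later comparisons no share over all cytosines was computed with a library left out. Such counts therefore do not tell a shift of the clustered cytosines from one of all cytosines. limma, whose error term is the spread between replicates, called 0 clustered cytosines and 0 (0%) of all, with 1 clustered cytosine and 186 in all at an unadjusted p under 0.05.

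The 7 cytosines lower in LF were 3 in Igfbp3, an IGF-binding protein, 2 in Cmss1, and 1 each in Ank, a pyrophosphate transporter, and Skida1. Igfbp3 had 8.85% and 13.1% in LF and 17.1% and 14.4% in MF. Over the 7 tested cytosines of Ank the means were 23.2% and 18% in LF and 25.7% and 34.4% in MF, a difference of -9.46 percentage points (Fisher's exact test, lowest adjusted p = 0.0212). The 5 of Fam8a1 went the other way, with 59.7% and 52.2% against 46.7% and 48.7%, and none was called. The 7 of Ntn1 had 10.5% and 17.7% against 24.3% and 19.1%, and none was called. The groups did not overlap in any of the 4, and limma called no cytosine in them. Over the 181 cytosines the median difference was -2.98 percentage points, against 0 over all 1842, which were not restricted to those selected outside the comparison.

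In pLF against pMF, 17 (7.14%) of 238 clustered cytosines were higher in pLF (background 8.66% of 1074) and 3 (1.26%) lower (background 1.02%), so their share was close to that of all cytosines tested. Without pLF replicate 1 there were 12 higher and 1 lower, without pLF replicate 2 there were 14 and 6, without pMF replicate 1 there were 9 and 6, and without pMF replicate 2 there were 16 and 0. limma called 0 of them and 0 (0%) of all, with 30 clustered cytosines and 176 in all at an unadjusted p under 0.05. Skida1 gave 6 of the 17: its 8 cytosines averaged 25% and 18.3% in pLF and 10.8% and 8.19% in pMF, a difference of 12.2 percentage points (Fisher's exact test, lowest adjusted p = 0.0031). The others higher in pLF were 7 in Cmss1, 3 in Igfbp3 and 1 in Cavin1. Cmss1 differed little, with 24.8% and 29.0% in pLF and 23.3% and 25.8% in pMF, and its replicates overlapped. Usp7, which encodes a deubiquitinase, had 3.67% and 16.5% in pLF and 18.4% and 21.3% in pMF, with 1 of 5 cytosines called, and Myo9b had 72.1% and 73.0% against 68.3% and 61.4%, with none called.

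In pHF against pMF, 17 (7.36%) of 231 were higher in pHF (background 6.69% of 703) and 9 (3.90%) lower (background 2.42%). Without pHF replicate 2 there were 9, all higher, without pHF replicate 1 there were 11 higher and 24 lower, and without pMF replicate 1 there were 6 higher and 8 lower. limma called 0 of them and 0 (0%) of all, with 9 clustered cytosines and 24 in all at an unadjusted p under 0.05. Without pMF replicate 2 the Fisher calls were likewise not mostly higher in pHF. Skida1 had 25% and 18% in pHF and 10.8% and 8.19% in pMF, with 7 of 8 cytosines called. Hic1, a transcriptional repressor, had 29.9% and 31.9% in pHF and 17.8% and 21.8% in pMF in one of its clusters, with 3 of 5 called. Ntn1, the axon guidance protein netrin 1, was lower, with 51.1% and 46.3% in pHF and 72.1% and 56.2% in pMF, and 3 of 10 called (Fisher's exact test, lowest adjusted p = 0.0092). Without pHF replicate 2 the differences from pMF were 15.4 percentage points for Skida1, 10.1 for Hic1 and -13.1 for Ntn1. The pMF libraries stand in both of these comparisons, so the values of Skida1 in them are not independent.

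The comparison of polysome with total mRNA asked whether cytosines of mRNA on ribosomes differed in level from those of all mRNA. For these pairs the restriction to cytosines selected outside the pair does not remove the selection on level, since the other polysome conditions can admit a cytosine that is high in polysome mRNA and the other total condition one that is high in total mRNA. In pLF against LF, 215 clustered cytosines were tested, of which 27 were selected outside the pair in polysome mRNA alone and 26 in total mRNA alone. Of the 27, 23 were called higher in pLF, and of the 26, 9 were called lower and 2 higher, which is in part what their selection set. In pMF against MF, 46 of 189 were admitted by polysome mRNA alone, 32 of them called higher in pMF, and 6 by total mRNA alone.

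The cytosines selected outside the pair in both total and polysome mRNA were not admitted by one side alone, a restriction chosen after the data had been seen. In pLF against LF they were 162 in 25 genes, of which 61 (37.7%) were higher in pLF (42.7% of all 220 cytosines tested under the same restriction) and 11 (6.79%) lower (5% of all). limma called 19 higher and 2 lower. The number lower was 1 without LF replicate 2 and 18 without LF replicate 1, and the number higher was 37 without LF replicate 1. The median difference was 3.62 percentage points, against 5.05 over the 220. With 1 library left out it lay between 2.34, without LF replicate 1, and 6.35, without LF replicate 2. In pMF against MF they were 137 in 19 genes, of which 27 (19.7%) were higher in pMF (28.5% of all 200) and 24 (17.5%) lower (12% of all). limma called 3 higher and 5 lower. Without MF replicate 1 there were 14 higher and 18 lower, without pMF replicate 2 21 higher and 16 lower. The median difference was 0.06 percentage points, against 1.38 over the 200. It was -1.28 without MF replicate 2 and -0.97 without pMF replicate 1, but 0.21 without MF replicate 1 and 0.47 without pMF replicate 2. The share higher in polysome mRNA was thus somewhat below the background in both pairs. These backgrounds hold the clustered cytosines too, and the difference in shares was not tested, as cytosines of a cluster are not independent. For limma no background was computed under this restriction. Over all the clustered cytosines tested, 86 (40%) of 215 were higher in pLF and 20 (9.30%) lower (backgrounds 60.4% and 4.58% of 480), and 59 (31.2%) of 189 were higher in pMF and 27 (14.3%) lower (backgrounds 44.7% and 8.93% of 403), with the selection in these counts.

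Ntn1 had the largest mean difference in both among clusters with at least 3 tested cytosines whose replicates did not overlap. Its 7 cytosines tested in pLF and LF, all selected in MF and in another polysome condition too, averaged 61.3% and 61.7% in pLF and 10.5% and 17.7% in LF, 47.4 percentage points higher in pLF (lowest adjusted p = 9.29e-18 by Fisher's exact test and 0.00013 by limma). Its 10 tested in pMF and MF averaged 72.1% and 56.2% in pMF and 22.3% and 19.2% in MF, 43.4 points higher in pMF. Outside that pair these 10 were selected in polysome mRNA alone, so this difference is given without a test. The 7 tested in pLF and LF were all called by both tests. The pHF replicates, at 51.1% and 46.5% over the whole cluster, also lay above each LF and MF library.

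Mad2l2, a subunit of DNA polymerase zeta, had 67.6% and 64.1% in pMF and 36.9% and 53.3% in MF, with 8 of 8 cytosines called by Fisher's exact test and 1 by limma. In pLF it had 66.8% and 66.6% and in LF 45% and 60.4%, with 5 of 8 called by Fisher's exact test. Its polysome replicates lay within 4 points of each other, while those of total mRNA were over 15 apart. Ccny, the gene of cyclin Y, had 23.8% and 24.6% in pLF and 8.18% and 8.67% in LF over the 3 cytosines of one cluster. In pMF they had 28.3% and 14.7%, against 8.68% and 9.60% in MF. They were selected through polysome mRNA alone, so these values carry no test. In Ids, which encodes iduronate 2-sulfatase, 7 cytosines had 41.4% and 56.0% in pLF and 26.2% and 33.5% in LF. Outside that pair they were selected in MF alone, and they too are given without a test.

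Other clusters had lower values in polysome mRNA. The 4 cytosines tested in the upstream cluster of Fastk, the founding gene of the FASTK family, had 16.3% and 23.6% in pLF and 39.5% and 44.9% in LF, a difference of -22.2 percentage points. Rgp1, a Golgi exchange factor subunit, had 25.2% and 18.2% in pLF and 35.2% and 44.5% in LF. Outside that pair both clusters were selected in total mRNA alone, so being lower in polysome mRNA is in part set by the selection and has no test. Cmss1 had 23.3% and 25.8% in pMF and 37.6% and 32.3% in MF, with 7 of 7 called by Fisher's exact test and 0 by limma. Skida1 was higher in pLF than in LF (25% and 18.3% against 11.3% and 13.7%) but lower in pMF than in MF (10.8% and 8.19% against 18.1% and 15.0%). These comparisons share libraries with those between folate concentrations.

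**Figure D5:**
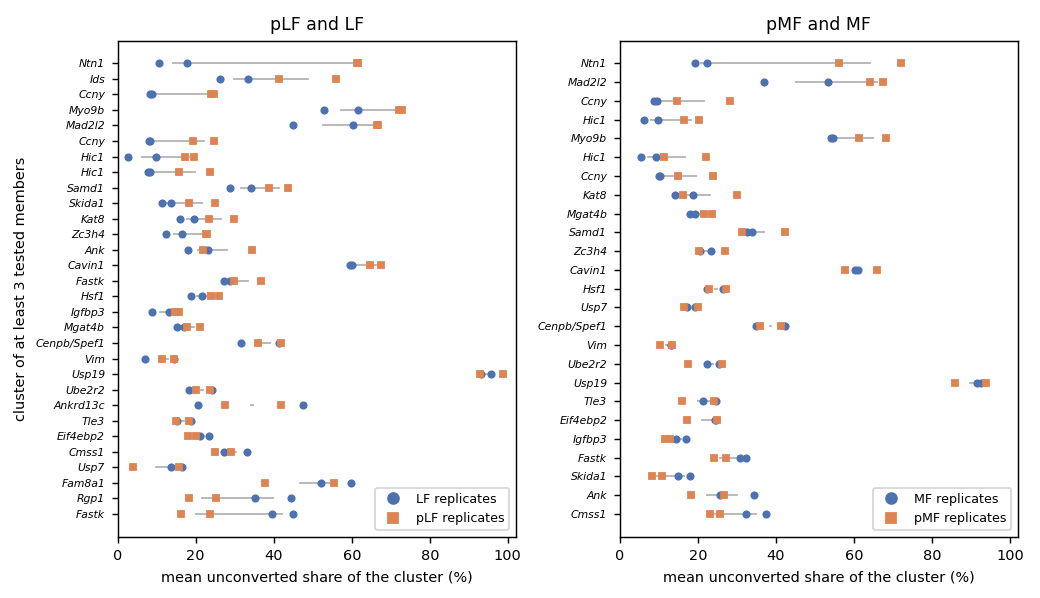
Mean unconverted share (%) of each cluster with at least 3 tested cytosines in the replicates of polysome mRNA (orange squares) and total mRNA (blue circles), for pLF and LF on the left and pMF and MF on the right, ordered by the difference. Grey lines join the group means, and clusters that were selected outside the pair on one side alone are included. Ntn1 is at the top of both panels, with polysome replicates between 56.2% and 72.1% and total replicates between 10.5% and 22.3%.

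Ccnd1, Cpe and Stox2 were nearly or largely converted in total mRNA and selected through polysome libraries, so their difference is part of the selection and has no test. Ccnd1, which encodes cyclin D1, had 1.14% and 0.823% in LF and 1.13% and 1.47% in MF, but pLF gave 49.0% and 31.5%, pMF 12.6% and 14.4%, and pHF 24.5% and 4.31%. Cpe, carboxypeptidase E, had 0.115% to 0.184% in LF and MF, 4.81% and 16.2% in pLF, 12.5% and 15.7% in pMF, and 8.92% in the pHF replicate that covered it. Stox2 had 6.80% to 8.56% in LF and MF, 26.1% in the pMF replicate that covered it, and 32.3% and 32.2% in pHF. Tmsb4x, the actin-binding thymosin beta 4, went the other way, with 8.58% and 1.63% in LF and 12.1% and 12.7% in MF against 0.408% to 1.54% in polysome mRNA. It was selected in MF alone, so this difference too is part of the selection and has no test.

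Genes of abundant or structured RNAs were looked up in fixed lists. Over all 15756 nuclear gene annotations listed with a coverage of at least 20 in some library, 65 (0.413%) held a clustered cytosine, and the counts of the lists are to be read against this share. Ribosomal protein annotations were taken as the 253 listed symbols that start with Rpl or Rps and a number. This pattern can also match pseudogenes and other genes. No clustered cytosine lay in these 253, the 57 histone annotations, the 4 nuclear long noncoding RNAs, the 3 loci that resemble rRNA or the 2 structured small RNAs. Of 29 collagen annotations, Col12a1 alone held any, the 12 of its intronic repeat. The annotations of the Rpl or Rps pattern held 4 isolated called cytosines in 4 annotations, and the collagen genes held 5 in 5. Among all 15756 annotations, 253 held the 258 isolated cytosines.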

How the data were processed

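The authors used fastp for trimming, meRanGh for unique alignment to mm10 and meRanCall for calling cytosines. They deposited 1 list per library with the counts of covering and unconverted reads at each cytosine, not normalized, and the methylation level as a fraction. The submitters' processing notes also name R 4.1.1. The lists begin at a coverage of 10 and 1 unconverted read. The study's later removal of reads with several unconverted cytosines and of predicted conversion-resistant regions was not repeated here, and clusters with long stretches at 100% show that such reads are still counted in these lists.

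Samples were grouped by their labels. The cytosines, gene lists and tests were chosen with earlier results of these data known. Tables were handled in Python 3.11.15 (pandas 2.3.3, numpy 2.4.6). Of the entries of state M with a gene annotation on chromosomes other than MT and Y, those with coverage from 20, unconverted reads from 6 and a level from 0.1 were called. Called neighbours on the same strand within 25 bases were joined into clusters. Cluster means use cytosines with a coverage of at least 20, except those of Cpe and Tmsb4x in the closing observations, which use every listed cytosine. In the description of clusters, a mean was left out where most cytosines of the cluster fell short of this coverage. At this coverage 1 read moves a level by 5 percentage points. Places come from GENCODE vM21 and sequence from GRCm38.p6 through pysam 0.24.0. Pairing was computed with ViennaRNA 2.7.2 over 75 bases of genomic sequence on each side, with a span limit of 150. Fisher's exact tests were run with scipy 1.17.1 and limma 3.58.1 (R 4.3.3) on log odds with a pseudocount of 0.5, both adjusted over all cytosines tested at a threshold of 0.05, and both were tested on simulated data (seed 20221123). Figures used matplotlib 3.10.9. Genes were named as the 20 with the most clustered cytosines, those of the fixed lists, and for each of 5 comparisons the 3 clusters with the largest difference whose replicates did not overlap. Others were named after their values had been seen. Alternatives were other minimums of coverage, reads and level, other windows, leaving out pHF, chromosome MT or each library, limma, a replicate block, other flanks and folding at 37 °C. A few markers and sequences are not reported here.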

Additional observations from a re-analysis of the deposited data

Results flagged for a closer look

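Both results here come from the libraries labelled HF, which entered neither the selection nor a test, and are given as values. The Cpe cluster had 3.16% and 1.50% in these libraries, a mean of 2.33% over cytosines with a median coverage of 229 and 246, against 0.115% to 0.184% in LF and MF. The Tmsb4x cluster had 64.0% and 49.9%, a mean of 56.9% over all listed cytosines, with a median coverage of only 24 and 15, below the minimum of 20 used elsewhere in the second library, against 1.63% to 12.7% in LF and MF.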

How the results depend on the processing

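The number of clustered cytosines fell from 691 to 380 with a minimum coverage of 50, and all 380 were among the 691. It was between 567 and 1005 under the other settings of the rule, and between 716 and 1599 when the group of each left-out library was judged on the other replicate, with 1481 without pLF replicate 1 and 1599 without pHF replicate 1. Averaged over clusters instead of taken as the median over cytosines, the level was 25.5% in LF (21.6%), 27.4% in MF (24.9%), 10.2% in the libraries labelled HF (2.95%) and 42% in pLF (50.2%).

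Counts of cytosines with a different level depended on the test and, in LF against MF to the same extent, on the libraries. With limma, which uses the spread between replicates, 7 calls for LF against MF, 20 for pLF against pMF and 26 for pHF against pMF became 0. The 106 for pLF against LF became 47, or 21.9% of clustered cytosines, where limma called 45.4% of all 480. The 86 for pMF against MF became 25, or 13.2%, where limma called 26.8% of all 403. A restriction chosen after seeing the data kept cytosines selected outside the pair in both total and polysome mRNA. Under it the 106 and 86 Fisher calls became 72 and 51. Leaving out a library gave 0 to 14 for LF against MF, with the lowest without LF replicate 1. It gave 13 to 20 for pLF against pMF, with the lowest without pLF replicate 1, and between 9, without pHF replicate 2, and 35, without pHF replicate 1, for pHF against pMF. No share over all cytosines was computed with a library left out.

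Replicates share a number with no stated pairing, and the correlation of same-numbered replicate deviations was 0.0908, 0.107, -0.234, 0.0636 and 0.0771 in the 5 comparisons in the order given above. With the replicate number as a block, limma called 0, 0, 0, 64 and 13, and the crossed pairing of pHF and pMF, chosen after seeing the data, also gave 0. Shares over all cytosines were not computed for these counts. The differences of the 15 clusters named by comparison kept their direction in 85 of 85 other settings. This was largely set in advance, since they were chosen for replicate means that did not overlap. Leaving out 1 library could then hardly reverse a direction. In percentage points, in LF against MF, Ank went from -9.46 to -5.15 without MF replicate 2, Fam8a1 from 8.29 to 4.53 without LF replicate 1, and Ntn1 from -7.62 to -4.76 without LF replicate 1 and -5.05 without MF replicate 1. Usp7 in pLF against pMF went from -9.77 to -2.52 without pLF replicate 1 and -16.2 without pLF replicate 2, Myo9b from 7.71 to 4.27 without pMF replicate 2, and Ntn1 in pHF against pMF from -15.5 to -7.55 without pMF replicate 1 and -23.4 without pMF replicate 2. In pMF against MF, Mad2l2 went from 20.7 to 12.5 without MF replicate 1, and Ccny from 12.4 to 5.59 without pMF replicate 1 and 19.2 without pMF replicate 2. In pLF against LF, Ids went from 18.9 to 11.6 without pLF replicate 2. At the lowest coverage, 20, 1 read moves a level by 5 percentage points, so smaller differences were not detectable there.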
